A study of Homo sapiens with 18 samples.

Results

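Cytosolic heat shock proteins are the chaperones that fold new and damaged proteins in the cytosol, and 7 of their genes were followed here by transcript: HSP90AA1 (ENST00000216281), HSP90AB1 (ENST00000353801), HSPA8 (ENST00000227378 and ENST00000534624), HSPA4 (ENST00000304858), HSPH1 (ENST00000320027), DNAJA1 (ENST00000330899) and DNAJB1 (ENST00000254322). They were chosen by transcript identifier, and an identifier was kept only if its tabulated length equalled the protein's length less 1 trim common to the table. All 8 identifiers passed, with a trim of 20 codons in the footprint tables and 19 in the mRNA tables. The trim was taken from these same identifiers, so the match in length is no independent support for the assignment. Both HSPA8 identifiers carried identical counts and were treated as 1 feature. The genes thus make 7 of the 14377 distinct transcript features with a footprint count, and all 7 passed the filter on low counts in every comparison.

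The study compared 3 lines of HEK293, an immortalised human embryonic kidney line: unedited cells (WT), a clonal UFM1-KO line made with Cas9 and sgUFM1, and a clonal UFSP2-KO line made with Cas9 and sgUFSP2. UFM1 is a ubiquitin-like modifier that is joined to the ribosomal protein RPL26, and UFSP2 is the protease that removes it. Each line gave ribosome footprints, the stretches of mRNA that ribosomes protect from nuclease, from a cytosolic fraction released by digitonin and from a membrane fraction released by Triton from what digitonin left, and each gave mRNA from whole-cell lysate. Every one of the 9 groups held 2 libraries, called a and b. All cells grew in the same medium at the same temperature, and no group was heat shocked or given a drug. A knockout is 1 clone, so knockout and clone cannot be told apart. Nothing in the labels says that libraries a and b came from separate cultures, and p-values then measure only the spread between these libraries, which may be technical.

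Hsp70 proteins bind short hydrophobic stretches of unfolded chains and release them through cycles of ATP hydrolysis. J-domain proteins bring them substrates and start the hydrolysis, and Hsp110 proteins such as those of HSPA4 and HSPH1 exchange the nucleotide so that the substrate is let go. Hsp90 acts later on partly folded clients such as kinases and steroid receptors. When unfolded proteins accumulate in the cytosol, the transcription factor HSF1 binds heat shock elements in promoters, which are inverted repeats of the unit GAA, and many of these genes are induced together. HSPA8 and HSP90AB1 are known as the abundant constitutive forms, and DNAJB1 and HSP90AA1 as stress-inducible ones.

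The promoters are shown because the heat shock element is what many of these genes have in common. Whether it bears on differences between the lines was not tested. RefSeq windows of 300 bases on GRCh38.p14, from 250 before to 50 after a transcription start, were searched on both strands for 3 units in a row, either GAA, any 2 bases, TTC, any 2 bases and GAA, or TTC, any 2 bases, GAA, any 2 bases and TTC. Promoters matched by symbol for all 7 genes. Such a 3-unit element lay in 172 of 35116 promoters (0.49%). By gene, it lay in a promoter of 166 of 27305 genes (0.608%) and of 4 of the 7 members. Each stretch below runs 5′ to 3′ on the strand of its gene, with the matched element in capitals.
HSP90AA1, chr14:102087105-102087147, minus strand: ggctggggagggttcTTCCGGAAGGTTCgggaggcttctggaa
HSP90AB1, chr6:44247763-44247805, plus strand: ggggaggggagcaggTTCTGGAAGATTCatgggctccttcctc
HSP90AB1, chr6:44247816-44247858, plus strand: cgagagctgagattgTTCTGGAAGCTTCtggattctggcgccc
HSPA8, chr11:123062339-123062381, minus strand: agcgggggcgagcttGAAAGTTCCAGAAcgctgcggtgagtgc
HSPA8, chr11:123062164-123062206, minus strand: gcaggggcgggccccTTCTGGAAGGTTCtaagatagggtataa
DNAJA1, chr9:33025268-33025296, plus strand: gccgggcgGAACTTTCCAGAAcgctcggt
DNAJB1, chr19:14518422-14518489, minus strand: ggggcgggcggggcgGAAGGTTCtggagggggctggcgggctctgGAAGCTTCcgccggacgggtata

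HSP90AB1 and HSPA8 held 2 such elements each in 1 promoter, and HSP90AA1 and DNAJA1 held 1 each. The DNAJB1 windows held no run of 3 units, and its capitals mark pairs of units. Such a pair, GAA, any 2 bases and TTC or TTC, any 2 bases and GAA, was found in 4737 promoters (13.5%) and also lies inside every 3-unit run. The windows of HSPA4 and HSPH1 held neither pattern. A match describes the letters of these windows and is not a measured binding site. The genes lie apart in the genome, at chr14:102080742-102139749 for HSP90AA1, chr6:44246194-44253883 for HSP90AB1, chr11:123057489-123062462 for HSPA8, chr5:133052013-133106449 for HSPA4, chr13:31134973-31162388 for HSPH1, chr9:33025273-33039907 for DNAJA1 and chr19:14514769-14560391 for DNAJB1, all on GRCh38.p14. The values below are counts over coding sequence.

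Summed over all entries, footprint libraries held 1393032 to 11388755 counts, and mRNA libraries 37451244 to 68675420. Entries with identical counts each enter these sums. The counts analysed in the footprint fit were 916711 to 7636379 a library, and those in the mRNA fit 13565452 to 25034360. The 7 members took 0.919% to 1.45% of the analysed counts of cytosolic footprints, 1.26% to 1.65% of those of the membrane fraction and 0.55% to 0.829% of those of mRNA. The lowest count of any member was 56, for DNAJB1 in UFM1-KO cytosol library a. Levels are given in CPM, the usual library-scaled counts of edgeR, here after TMM scaling, so they are relative within a library, and fewer cells and less RNA per cell cannot be told apart. HSP90 and HSPA8 have near-identical copies elsewhere in the genome, and how the authors' counting treated reads shared with them is not given in the sources used here.

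Per unit of coding length, the Hsp90 genes and HSPA8 stood far above the other members in every line. In WT membrane footprints, CPM per 1000 codons was 7665 ± 287 (SD, n = 2) for HSP90AB1 and 7294 ± 705 for HSP90AA1, whose libraries overlapped. HSPA8 followed at 5201 ± 329, then DNAJA1 at 714 ± 84.2, HSPA4 at 513 ± 71.4, HSPH1 at 227 ± 18.8 and DNAJB1 at 191 ± 4.62, each apart from its neighbours in this order. In WT cytosol, DNAJB1 at 267 ± 64.0 stood above HSPH1 at 170 ± 17.3, and the Hsp90 genes again overlapped at 5360 ± 805 and 5325 ± 1690. In WT mRNA the order changed, with HSPA8 at 2875 ± 780, HSP90AA1 at 2200 ± 238 and HSP90AB1 at 2095 ± 203, and these 3 overlapped their neighbours in the order. HSPA8 moved to the top of the UFSP2-KO membrane footprints at 8915 ± 743, where it overlapped HSP90AB1 at 8689 ± 923. Among the features of its library a member was never below the percentile of 71.6, HSPH1 being the lowest, and the Hsp90 genes and HSPA8 were always at 97.1 or above.

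**Figure D1:**
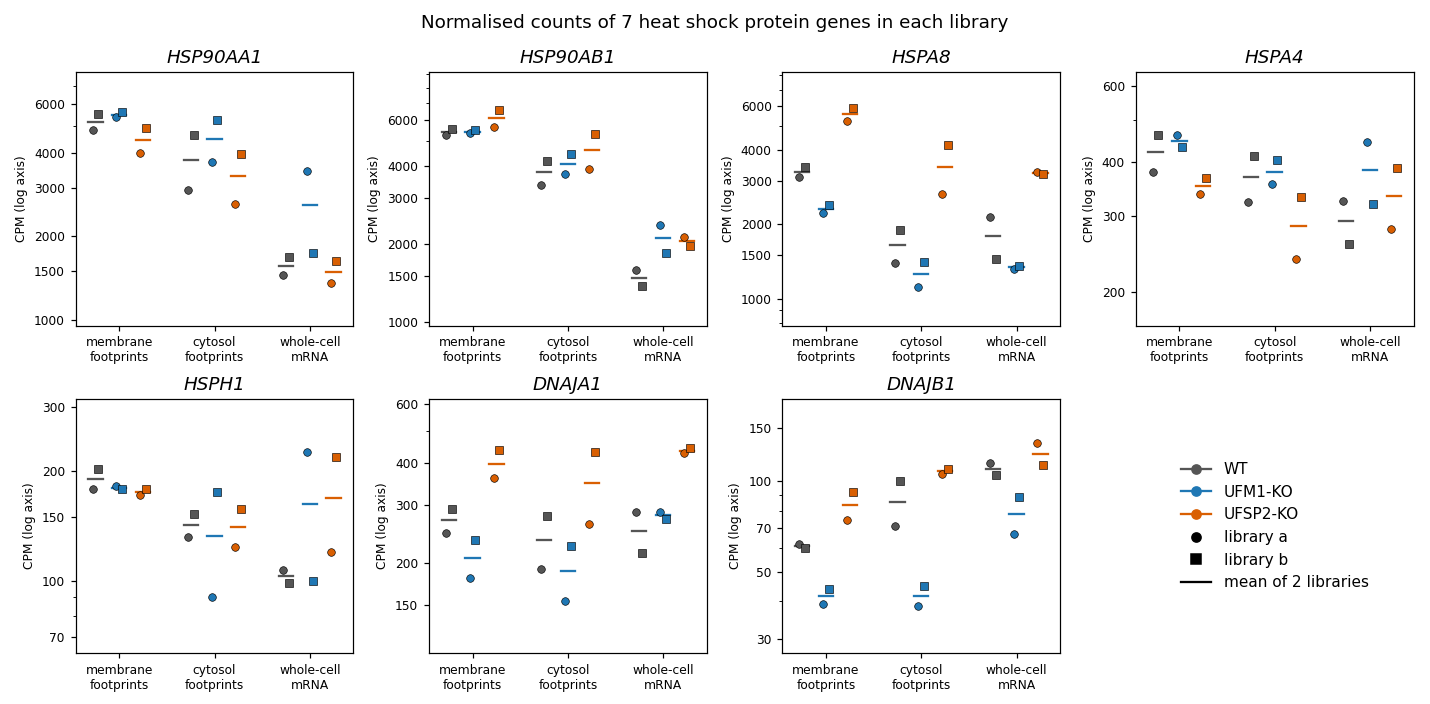
CPM of each gene (log axis) in the 2 libraries of each line for membrane footprints, cytosolic footprints and whole-cell mRNA, 1 panel a gene and 1 point a library. HSPA8 climbs from UFM1-KO through WT to UFSP2-KO in membrane footprints (2220 to 5910 CPM), whereas HSP90AA1 and HSPA4 do not.

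HSPA8, the constitutive cytosolic Hsp70, was higher in UFSP2-KO than in either other line in every readout. Its membrane footprints were 2220 and 2396 CPM in UFM1-KO libraries a and b, 3110 and 3401 in WT, and 5252 and 5910 in UFSP2-KO. Its mRNA was 1324 and 1360 CPM in UFM1-KO, 2148 and 1457 in WT, and 3261 and 3185 in UFSP2-KO. In both readouts every UFM1-KO library lay below WT and every UFSP2-KO library above it. Cytosolic footprints were 1113 and 1409 CPM in UFM1-KO, 1393 and 1902 in WT, and 2668 and 4184 in UFSP2-KO. There UFM1-KO overlapped WT, and UFSP2-KO lay above both. Here and below, separation of lines without overlap is a description. The exact two-sided permutation test with 2 libraries against 2 cannot go below p = 0.333. The share of all features separated in the same way was not counted.

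The rise of HSPA8 in UFSP2-KO over WT was 2.08-fold in cytosolic footprints (log2 change 1.06, SE 0.20, edgeR adjusted p = 0.00276). It was 1.71-fold in membrane footprints (log2 0.78, SE 0.20, edgeR adjusted p = 0.0125) and 1.79-fold in mRNA (log2 0.84, SE 0.21, edgeR adjusted p = 0.0235). Of the 3, the cytosolic call stood whichever library was left out. The membrane call was lost without UFSP2-KO library b (log2 0.69, edgeR adjusted p = 0.133), without WT library a (0.72, 0.12) or without WT library b (0.85, 0.0768), and the mRNA call without WT library b (0.59, 0.244). In UFM1-KO against WT, no HSPA8 difference passed the test: log2 -0.50 (95% interval -0.91 to -0.08, edgeR adjusted p = 0.319) in membrane footprints, -0.39 (-0.80 to 0.03, 0.479) in cytosol and -0.43 (-0.87 to 0.01, 0.324) in mRNA. The membrane value passed when only the WT and UFM1-KO membrane libraries were fitted (log2 -0.54, edgeR adjusted p = 0.00907).

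Set directly against each other, the knockout lines differed in HSPA8 in every readout. UFSP2-KO held 2.42 times the UFM1-KO level in membrane footprints (UFM1-KO against UFSP2-KO log2 -1.27, SE 0.20, edgeR adjusted p = 6.18e-05). The fold was 2.72 in cytosol (log2 -1.44, SE 0.21, edgeR adjusted p = 3.39e-05) and 2.40 in mRNA (log2 -1.26, SE 0.21, edgeR adjusted p = 0.000761). These calls held under every alternative tried, with any 1 of the compared libraries left out. The comparisons of each knockout with WT share the WT libraries, and this one shares its knockout libraries with both of them.

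DNAJA1 and DNAJB1, the J-domain partners that feed substrates to Hsp70, were also higher in UFSP2-KO than in UFM1-KO. DNAJA1 had 181 and 235 CPM of membrane footprints in UFM1-KO, 247 and 292 in WT, and 360 and 437 in UFSP2-KO. Its cytosolic footprints were 154 and 226 CPM in UFM1-KO, 193 and 277 in WT, and 263 and 432 in UFSP2-KO, and its mRNA was 286 and 272, 285 and 215, and 428 and 444 CPM. The lines did not overlap in membrane footprints. In cytosol each knockout overlapped WT, and in mRNA only UFM1-KO did so.

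For DNAJA1 the UFSP2-KO level was 1.93 times that of UFM1-KO in membrane footprints (log2 -0.95 for UFM1-KO against UFSP2-KO, SE 0.25, edgeR adjusted p = 0.00712), 1.84 times in cytosol (-0.88, SE 0.25, 0.0218) and 1.56 times in mRNA (-0.64, SE 0.20, 0.0386). Against WT, DNAJA1 rose in UFSP2-KO mRNA by 1.74-fold (log2 0.80, SE 0.20, edgeR adjusted p = 0.0242). The footprint values in UFSP2-KO against WT missed the threshold, at log2 0.56 in membrane (95% interval 0.06 to 1.07, edgeR adjusted p = 0.14) and 0.56 in cytosol (0.05 to 1.07, 0.21). No value of UFM1-KO against WT passed, at -0.38, -0.32 and 0.16 in membrane, cytosol and mRNA. The mRNA call between knockouts was lost with any 1 of the 4 libraries left out (log2 -0.68 to -0.61) and with library size as the only scaling (-0.56). The membrane call was lost without UFM1-KO library a (-0.76) or UFSP2-KO library b (-0.80), and the cytosolic call likewise (-0.63 and -0.59). The rise in UFSP2-KO mRNA over WT was lost without UFSP2-KO library b (0.78) or WT library b (0.62).

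DNAJB1 was the one member lower in UFM1-KO than in WT by the test. Its cytosolic footprints were 38.4 and 44.9 CPM in UFM1-KO, 70.9 and 99.9 in WT, and 106 and 110 in UFSP2-KO. Membrane footprints were 39.0 and 44.0 CPM, 62.1 and 60.0, and 74.4 and 92.3 in the same order of lines, and mRNA was 66.8 and 88.6, 115 and 105, and 134 and 113. In both fractions the lines did not overlap, and in mRNA UFM1-KO lay below the other lines, which overlapped.

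In cytosol, DNAJB1 fell in UFM1-KO against WT by 1.07 on the log2 scale (SE 0.24, edgeR adjusted p = 0.0295). That call was lost without UFM1-KO library a (log2 -0.97) or b (-1.19), without WT library b (-0.76), when only the groups compared were fitted (-1.02) and with library size as the only scaling (-0.93). The values in membrane footprints and mRNA were log2 -0.57 (95% interval -1.02 to -0.11, edgeR adjusted p = 0.285) and -0.50 (-0.96 to -0.04, 0.262). In UFSP2-KO against WT, log2 0.46, 0.30 and 0.17 in membrane, cytosol and mRNA did not pass. Between the knockouts UFSP2-KO held 2.58 times the UFM1-KO level in cytosol (log2 -1.37, SE 0.24, edgeR adjusted p = 0.000307), a call that held with any 1 library left out. The fold was 2.04 in membrane footprints (-1.03, SE 0.23, 0.00184) and 1.59 in mRNA (-0.67, SE 0.22, 0.0466). The membrane call was lost without UFM1-KO library a (-0.93) or UFSP2-KO library b (-0.86), and the mRNA call without UFM1-KO library a (-0.48) or UFSP2-KO library a (-0.54), with library size only (-0.58) or with only the groups compared (-0.66).

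The Hsp90 genes, which had the most footprints per codon of the members in WT, showed no footprint difference between lines that passed the test. HSP90AA1 had 4838 and 5548 CPM of membrane footprints in WT, 5408 and 5614 in UFM1-KO, with 3988 and 4915 in UFSP2-KO. In cytosol it had 2939 and 4644 CPM, 3702 and 5258, and 2627 and 3970 in these lines. The UFM1-KO membrane libraries lay above those of UFSP2-KO, and the other HSP90AA1 footprint groups overlapped between lines. HSP90AB1 had 5253 and 5539 CPM in WT membrane, 5334 and 5494 in UFM1-KO, with 5658 and 6577 in UFSP2-KO, the high line. Its cytosolic footprints were 3373 and 4174 CPM, 3700 and 4451, and 3883 and 5279, and these overlapped throughout. Over both genes, fractions and the 3 line comparisons, footprint log2 changes ran from -0.22, for HSP90AA1 in UFSP2-KO against WT membrane, to 0.44, for HSP90AA1 in UFM1-KO against UFSP2-KO cytosol (95% interval 0.00 to 0.88, edgeR adjusted p = 0.196). That last value passed with library size as the only scaling (0.57, edgeR adjusted p = 0.0427).

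In mRNA the 2 UFM1-KO libraries disagreed on HSP90AA1, at 3458 CPM in a and 1738 in b, beside 1449 and 1689 in WT and 1359 and 1629 in UFSP2-KO. HSP90AA1 mRNA was called higher in UFM1-KO than in UFSP2-KO by 1.74-fold (log2 0.80, SE 0.26, edgeR adjusted p = 0.0467). Without UFM1-KO library a that value was log2 0.22 (edgeR adjusted p = 0.667), so the call rests on that library, and it was also lost without UFSP2-KO library a (0.67), with library size only (0.88), with only the groups compared (0.82) and with all mRNA transcripts of known length (0.79). Against WT, UFM1-KO stood at log2 0.73 (95% interval 0.18 to 1.28, edgeR adjusted p = 0.166). That value was 1.14 without UFM1-KO library b and 0.15 without UFM1-KO library a. HSP90AB1 mRNA was 1578 and 1376 CPM in WT, 2355 and 1835 in UFM1-KO, with 2128 and 1962 in UFSP2-KO. Both knockouts lay above WT, at log2 0.50 (edgeR adjusted p = 0.214) and 0.47 (0.155), neither of which passed.

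HSPA4 and HSPH1, the Hsp110 nucleotide exchange factors, had no call between lines in any readout of the main fit. HSPA4 had 379 and 462 CPM of membrane footprints in WT, 462 and 433 in UFM1-KO, with 336 and 367 in UFSP2-KO, and in cytosol 323 and 413, 355 and 403, and 238 and 331. UFSP2-KO was the low line in both fractions, apart from UFM1-KO in each and from WT in membrane alone. The largest HSPA4 footprint value, UFM1-KO against UFSP2-KO in cytosol, was log2 0.41 (95% interval -0.03 to 0.84, edgeR adjusted p = 0.227). HSPA4 mRNA was 325 and 258 CPM in WT, 445 and 320 in UFM1-KO, with 280 and 388 in UFSP2-KO, which overlapped. HSPH1 had nearly level membrane footprints, 179 and 202 CPM in WT, 182 and 178 in UFM1-KO, with 172 and 179 in UFSP2-KO. Its cytosolic footprints were 132 and 152, 90.5 and 175, and 124 and 157 CPM. HSPH1 mRNA split within groups, at 225 and 100 CPM in UFM1-KO and at 120 and 218 for UFSP2-KO, beside 107 and 98.8 in WT. Against WT these were log2 0.66 (edgeR adjusted p = 0.32) and 0.71 (0.181). Without the lower library of the knockout they were 1.13 and 1.08, and without the higher one -0.03 and 0.22. The HSPH1 value of UFSP2-KO against WT passed when only the mRNA libraries of these lines were fitted (edgeR adjusted p = 0.0367).

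**Figure D2:**
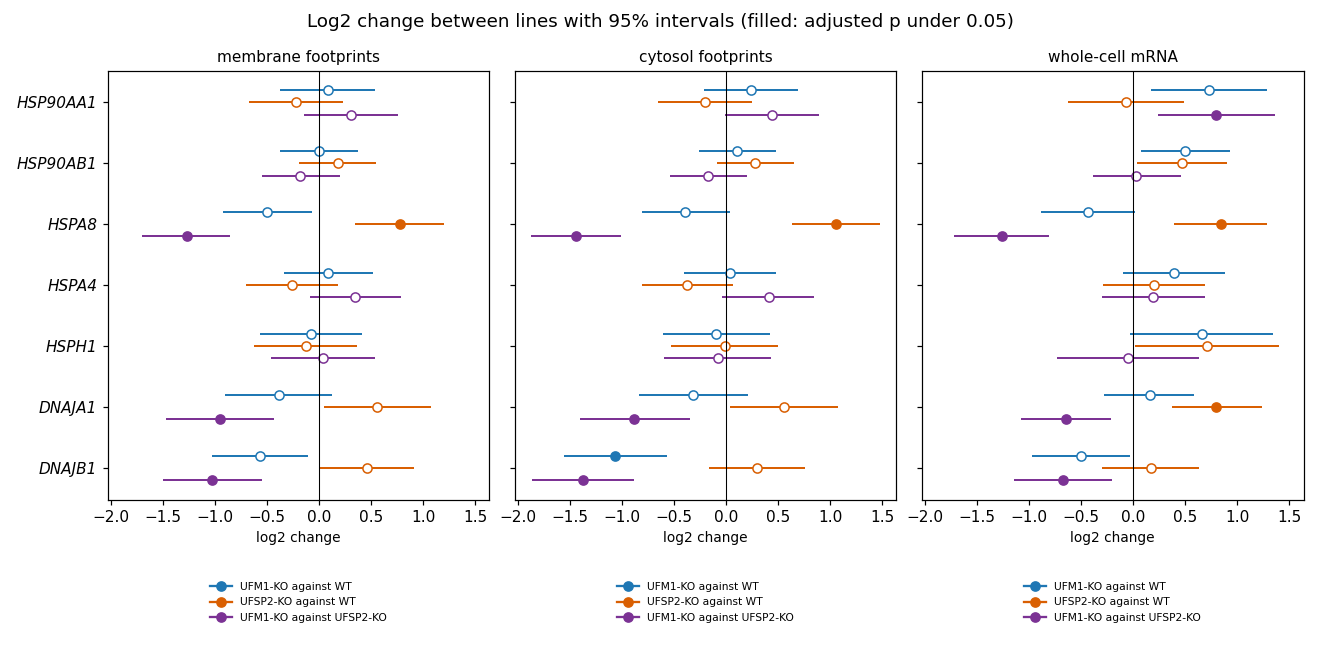
Log2 change of each gene (x axis) with its 95% interval for the 3 comparisons of lines in membrane footprints, cytosolic footprints and mRNA, with filled points where the edgeR adjusted p was under 0.05. Between UFM1-KO and UFSP2-KO, HSPA8, DNAJA1 and DNAJB1 lie left of 0 with filled points in all 3 readouts, from -1.44 to -0.64.

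Counted over the 7 members, calls between lines were few against WT and more frequent between the knockouts, as they were for all features. In membrane footprints 0 of 7 were called in UFM1-KO against WT (background 1.26% of 11065 features), 1 higher in UFSP2-KO against WT (11.1%) and 3 lower in UFM1-KO against UFSP2-KO (21.4%). The 0 stands beside 2 members at an unadjusted p under 0.05 by edgeR and 0 calls by DESeq2. In cytosolic footprints the counts were 1 lower (background 0.85%), 1 higher (3.99%) and 3 lower (12%). In mRNA they were 0 (background 1.97% of 13900 features), 2 higher (7.18%), and 3 lower with 1 higher (15.9%). That 0 stands beside 3 members at an unadjusted p under 0.05 by edgeR and 0 calls by DESeq2. Median log2 changes of the members in UFM1-KO against UFSP2-KO were -0.18, -0.17 and -0.05 in membrane, cytosol and mRNA, beside 0.05, 0.00 and 0.01 over all features tested. In footprints these medians cover 3 called members, HSPA8 and both J-domain genes, and 4 with no call.

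Within a library, ratios of counts per codon need no scaling between libraries, and some of them separated lines that overlapped in level. Other pairs did not separate every line. DNAJA1 to HSPA8 in membrane was 0.135 and 0.163 in UFM1-KO beside 0.132 and 0.142 in WT, and DNAJB1 to DNAJA1 overlapped between all lines there. The ratio of HSPA8 to HSP90AA1 in membrane footprints was 0.467 and 0.485 in UFM1-KO, 0.731 and 0.697 in WT, and 1.5 and 1.37 in UFSP2-KO. In cytosol it was 0.342 and 0.305, 0.539 and 0.466, and 1.16 and 1.20 in the same order. In mRNA it was 0.435 and 0.890, 1.69 and 0.981, and 2.73 and 2.22. In all 3 readouts the lines stood in the order UFM1-KO, WT, UFSP2-KO without overlap, and HSPA8 footprints outnumbered those of HSP90AA1 per codon in UFSP2-KO alone. DNAJA1 to HSP90AA1 gave the same order, without overlap, in membrane (0.0632 and 0.0790, 0.0963 and 0.0993, 0.171 and 0.168) and in cytosol (0.0787 and 0.0813, 0.124 and 0.113, 0.189 and 0.206). In mRNA that ratio was 0.156 and 0.295 in UFM1-KO, 0.371 and 0.241 in WT, and 0.594 and 0.514 in UFSP2-KO, and UFM1-KO overlapped WT. The ratio of the Hsp90 genes, HSP90AB1 to HSP90AA1, was 1.10 and 1.01 in WT membrane, 0.998 and 0.990 in UFM1-KO, with 1.43 and 1.35 in UFSP2-KO. For this ratio UFM1-KO overlapped WT in cytosol and mRNA, and UFSP2-KO lay above both. These pairs were chosen after their values were seen, and with 2 libraries against 2 the exact two-sided permutation test cannot go below p = 0.333, so they are a description.

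**Figure D3:**
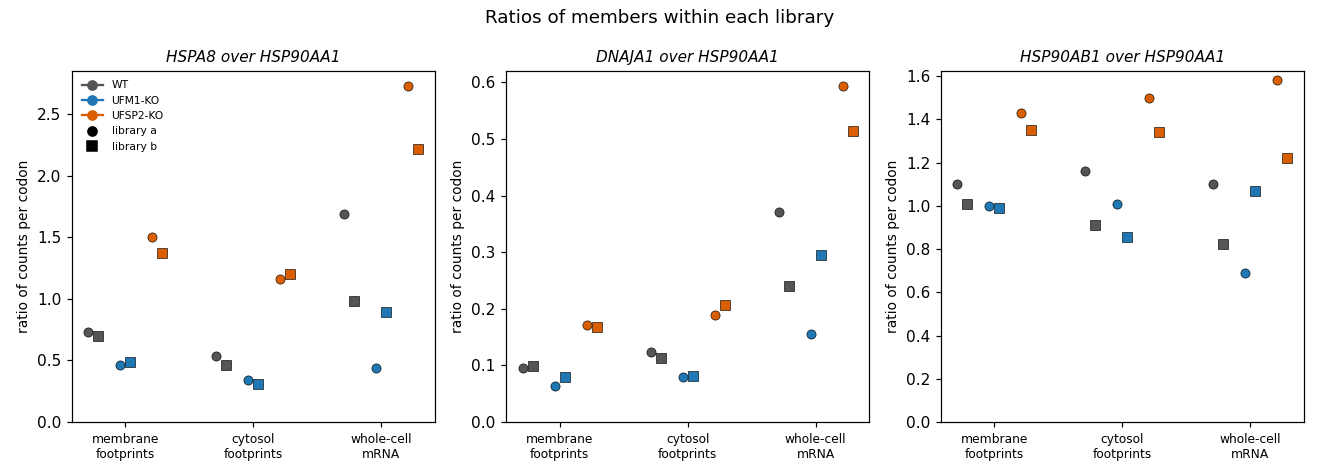
Ratios of counts per codon within each library, 1 panel a pair of genes and 1 point a library, by readout and line on a linear axis from 0. HSPA8 over HSP90AA1 runs from 0.305 to 0.890 in UFM1-KO and from 1.16 to 2.73 in UFSP2-KO.

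HSPA8 footprints were relatively more abundant in the membrane fraction than in the cytosolic one in every line. The membrane-to-cytosol fold of HSPA8 was 1.97 in WT (log2 0.98, SE 0.20, edgeR adjusted p = 0.000249). It was 1.83 in UFM1-KO (0.87, SE 0.20, edgeR adjusted p = 0.00107) and 1.63 for UFSP2-KO (0.70, SE 0.20, edgeR adjusted p = 0.00636). HSP90AB1 was also called in WT, at 1.43-fold (log2 0.52, SE 0.18, edgeR adjusted p = 0.0227). The remaining members did not pass. DNAJB1 stood on the other side in WT at log2 -0.53 (95% interval -0.97 to -0.08, edgeR adjusted p = 0.0575), with 62.1 and 60.0 CPM in membrane beside 70.9 and 99.9 in cytosol, and at -0.03 and -0.37 in UFM1-KO and UFSP2-KO. Thus 2 of 7 members were called in WT (background 37.5% of features), and each knockout had 1 (28.9% in UFM1-KO, 36.9% in UFSP2-KO), no more than the background share. Member medians were log2 0.41, 0.30 and 0.30, beside -0.02, 0.02 and 0.01 over all features. The UFSP2-KO call of HSPA8 was lost without membrane library b (0.62) or cytosol library a (0.42), and the HSP90AB1 call in WT without membrane library a (0.55) or b (0.48) or cytosol library a (0.37). Fraction purity was not tested, since no marker transcript could be looked up by name.

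All 7 members had more CPM in library b than in library a of the cytosolic footprints of every line (21 of 21 values), with median b-to-a ratios of 1.27 in UFM1-KO, 1.37 in WT and 1.39 in UFSP2-KO. Membrane values were higher in b in 18 of 21 cases and mRNA values in 7 of 21, with 2 in UFM1-KO, 4 in UFSP2-KO and 1 in WT. Over all features, 46.5% to 52.6% were higher in b in footprints and 42.8% to 52.5% in mRNA. Library a was also the shallower one in cytosol and in UFSP2-KO and WT membrane. In UFM1-KO membrane library a was the deeper one, with 5946622 analysed counts beside 1925036 in b. There 5 of 7 members were higher in b. Whether depth bears on these differences was not tested. Both letters occur in every line and fraction.

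No shift of these messages between the fractions passed the test. For HSPA8 the membrane-to-cytosol ratio differed by log2 -0.11 in UFM1-KO against WT (95% interval -0.70 to 0.48) and -0.28 in UFSP2-KO against WT (-0.86 to 0.31). The widest departure was DNAJB1 in UFM1-KO against WT, at 0.50 (-0.17 to 1.17). By edgeR 0 of 7 members were called in UFM1-KO against WT (background 0.00904%), in UFSP2-KO against WT (0.00904%) and in UFM1-KO against UFSP2-KO (0.0362%). None had an unadjusted p under 0.05 in these comparisons, and DESeq2 also called 0. The intervals reach from -0.86 to 1.17, and shifts within them were not detectable with 2 libraries a group.

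**Figure D4:**
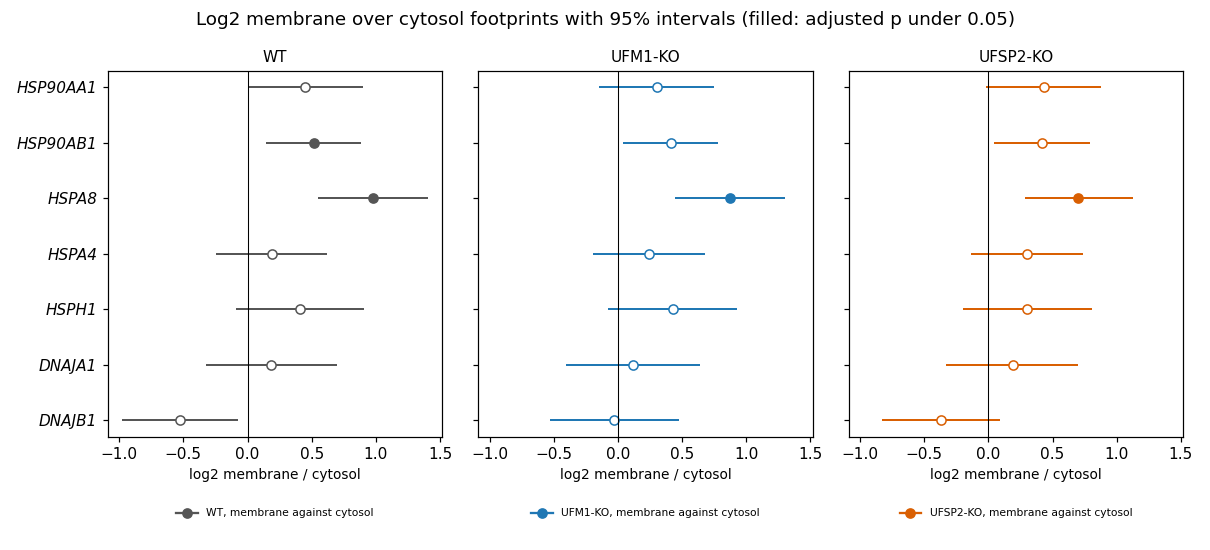
Log2 membrane-to-cytosol ratio of footprints with its 95% interval for each gene in WT, UFM1-KO and UFSP2-KO, with filled points where the edgeR adjusted p was under 0.05. HSPA8 is called in all 3 lines (0.98, 0.87 and 0.70), and DNAJB1 lies at or left of 0 in each.

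Footprints per mRNA differed widely among the members and were high for Hsp90. In WT membrane the ratio of footprint to mRNA CPM was 3.65 for HSP90AB1 and 3.31 for HSP90AA1, at percentiles 96.7 and 96.0 of 10980 features with a median of 0.627. HSPH1 at 1.85, HSPA8 at 1.81 and HSPA4 at 1.44 came next, followed by DNAJA1 at 1.08, and DNAJB1 at 0.555 (percentile 43.9) was the only member below the median. In WT cytosol the ratios were 2.55 and 2.42 for HSP90AB1 and HSP90AA1, 1.38 for HSPH1, 1.26 for HSPA4, 0.939 for DNAJA1, 0.914 for HSPA8 and 0.777 for DNAJB1, all above the median of 0.497. HSPA8 kept much the same ratio in the knockouts, at 1.72 in UFM1-KO and 1.73 in UFSP2-KO membrane and 0.940 and 1.06 in cytosol, although its footprint level differed by more than 2-fold between them. The ratio of HSP90AA1 in UFM1-KO membrane was 1.56 from libraries a and 3.23 from libraries b, following the split of its mRNA; a letter here only names a library and does not pair footprints with mRNA.

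**Figure D5:**
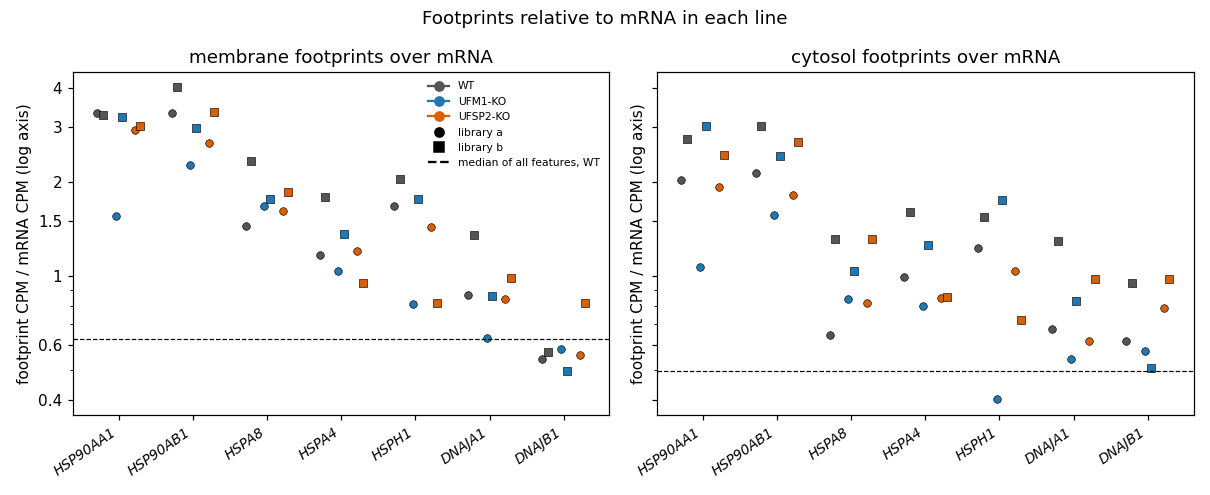
Ratio of footprint CPM to whole-cell mRNA CPM (log axis) for each gene and line in the membrane and cytosolic fractions, with a dashed line at the WT median of all features. The Hsp90 genes lie between 1.72 and 3.65 by line mean, and DNAJB1 lies between 0.534 and 0.875.

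Changes of footprints beyond those of mRNA were tested in 1 model over all 18 libraries. By edgeR 0 of 7 members were called in membrane footprints of UFM1-KO against WT (background 0% of 12629 features) or UFSP2-KO against WT (0.0792%), and 0 in cytosol for UFM1-KO (0%) or UFSP2-KO (0.0158%). DESeq2 called 0 members in each as well, and 1 edgeR value had an unadjusted p under 0.05, HSPH1 in UFSP2-KO membrane at log2 -0.87 (SE 0.41, adjusted p = 0.554). For HSPA8 the footprint change less the mRNA change was -0.10 in UFSP2-KO membrane (95% interval -0.72 to 0.53), 0.27 in UFSP2-KO cytosol (-0.36 to 0.89), -0.12 in UFM1-KO membrane (-0.74 to 0.50) and 0.03 in UFM1-KO cytosol (-0.60 to 0.65). For DNAJB1 in UFM1-KO cytosol it was -0.58 (-1.24 to 0.08). Member medians in UFM1-KO were -0.55 in membrane and -0.49 in cytosol, beside 0.00 and -0.01 over all features, and in UFSP2-KO they were -0.27 and -0.14, beside -0.06 and 0.01. In UFM1-KO all 7 members were negative in membrane and 6 in cytosol, and in UFSP2-KO 6 and 5 were. The UFM1-KO medians were the values of HSP90AB1 in membrane and DNAJA1 in cytosol. HSP90AA1 and HSPH1 mRNA was high in library a of UFM1-KO, and whether this bears on the medians was not tested.

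Across the 12 footprint libraries the members' log2 CPM varied together to differing degrees by Pearson's r, given as a description because libraries of a group and a fraction share their source. HSPA8 followed DNAJA1 (r = 0.88) and HSP90AB1 (0.82), and DNAJA1 followed DNAJB1 (0.74). HSP90AA1 followed HSPA4 (0.92) and HSPH1 (0.72). No clean division into sets was present, since HSP90AB1 also went with HSPH1 at 0.77 and with HSP90AA1 at 0.68, and HSPH1 with HSPA8 at 0.57. The lowest values were -0.57 for HSPA4 with DNAJB1 and -0.45 for HSP90AA1 with DNAJB1, and HSP90AA1 with HSPA8 stood at 0.18. Of 7790 other features, the 2 most like the mean log2 CPM of the 7 members over these libraries were ENST00000629880 (r = 0.985, mean 564 CPM) and ENST00000355899 (r = 0.983, mean 599 CPM), for which no symbol was matched.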

How the data were processed

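Ribosome footprints of membrane and cytosolic fractions and mRNA of whole-cell lysates were measured in 18 libraries. The authors deposited whole-number counts per versioned Ensembl transcript, not normalised, with a length as a further column. No header states the unit of this length, and it was read as codons from its match to the members' protein lengths. The submitters' processing notes name TopHat2 2.1.1 and GRCh38; what counted the reads, and on which annotation, is not given in the sources used here. Entries whose counts were equal across all libraries of an assay were merged, and 25629 mRNA transcripts were matched to the footprint tables by identifier and length. Isoforms that share only part of their reads stayed separate.

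The quasi-likelihood test of edgeR 4.0.16 (R 4.3.3) was run on TMM-normalised counts of features kept by filterByExpr (minimum count 10), with 1 coefficient per group, on 11065 footprint features in 12 libraries, 13900 mRNA features in 6 and 12629 features in all 18. Calls are two-sided, at a Benjamini-Hochberg adjusted p under 0.05 over all features of a comparison. SE values are the log2 change over the root of F. DESeq2 1.42.0, other scalings, no filter, unmerged transcripts, fits of only the groups compared, a replicate block and leaving out each library were the alternatives. The code was tested on simulated data. Every member is named whether called or not, beside the 2 features most like the members' mean. The members and lists were chosen with earlier results of these data known. Lists of other chaperones and of fraction markers were not tested and the knocked-out genes were not looked up, since no table used here pairs transcript identifiers with symbols. Intervals and p-values cover these libraries only.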

Additional observations from a re-analysis of the deposited data

How the results depend on the processing

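Over the 19 comparisons, 209 counts of called members under alternatives stayed within 1.5 times the main one, 21 were lower and 14 were higher. Of the values of single members, 1643 stayed on their side of the threshold, 38 lost a call and 27 gained one. Most of the 133 member results had no call in the main analysis, so most of the 1643 had a call in neither run. The 1643 is therefore no measure of how stable the calls were. Where the main or the alternative run had a call, 0 changed sign. Sign changes with no call in both runs were not counted. The calls of HSPA8, DNAJA1 and DNAJB1 between the knockouts in both footprint fractions held under every other scaling, filter, tool and block run. With a library left out, those of HSPA8 and of DNAJB1 in cytosol also held. Those of DNAJA1 in both fractions and of DNAJB1 in membrane were lost in some of these runs. The cause of the changes below was not tested.

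Membrane against cytosol, RLE size factors gave 2 called members in UFM1-KO and 2 in UFSP2-KO (each 1 in the main analysis), and library size as the only scaling gave 2 in UFSP2-KO. Library size only gave 0 instead of 1 in cytosol for UFM1-KO against WT and 1 instead of 4 in mRNA for UFM1-KO against UFSP2-KO. It moved the median log2 change of all features by -0.29 to 0.21, by over 0.1 in 10 of 19 comparisons. Fitting only the groups compared gave 1 instead of 0 (membrane, UFM1-KO against WT), 2 instead of 1 (membrane, UFSP2-KO against WT), 0 instead of 1 (cytosol, UFM1-KO against WT) and 2 instead of 4 (mRNA, UFM1-KO against UFSP2-KO).

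Libraries of one letter deviated from their group means with a correlation of 0.035 to 0.247 in footprints (10 of 15 group pairs over 0.1; 0.14 to 0.247 between lines within a fraction) and -0.67 to 0.06 in mRNA (0 of 3). The -0.67 was between UFM1-KO and UFSP2-KO mRNA over 9784 features, so UFM1-KO library a tended to deviate like UFSP2-KO library b. The mRNA of HSP90AA1, HSPA4 and HSPH1 was also higher in these libraries than in the other library of the same line. With 2 letters only and no label that ties them, libraries were taken to share only a letter. With the letter as a replicate block, membrane against cytosol gave 3 calls in UFSP2-KO, 2 in UFM1-KO and 4 in WT; membrane gave 1 for UFM1-KO and 2 for UFSP2-KO against WT; cytosol gave 2 for UFSP2-KO against WT; mRNA gave 2 for UFM1-KO against UFSP2-KO. It moved no other count by over 1.5 times. Between lines, edgeR with this block added calls of HSPA8 in membrane for UFM1-KO against WT (log2 -0.49, adjusted p = 0.0474), of DNAJA1 for UFSP2-KO against WT in membrane (0.57, 0.0182) and cytosol (0.56, 0.043), and of HSP90AA1 in cytosol for UFM1-KO against UFSP2-KO (0.45, 0.0237). The calls of DNAJA1 (-0.65, 0.0789) and DNAJB1 (-0.67, 0.0922) in mRNA between the knockouts did not pass with it. In mRNA the letters of these lines deviated in opposite directions, which a block by letter does not follow.

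With 1 library left out, the lone sample of its group is assumed to vary like the other groups. Counts of calls then ran, for membrane against cytosol, from 0 to 3 in UFSP2-KO, 1 to 2 in UFM1-KO and 1 to 3 in WT. In membrane footprints they ran from 0 to 1 for UFSP2-KO against WT and 1 to 3 between the knockouts, and in cytosol from 0 to 1 for UFM1-KO against WT. In mRNA they ran from 0 to 2 for UFM1-KO against WT, 0 to 3 for UFSP2-KO against WT and 1 to 3 between the knockouts. The 2 libraries a group and cytosolic libraries of as few as 916711 analysed counts limit the precision, and DNAJB1 and HSPH1 had the lowest counts.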
